A study of Mus musculus with 4 samples.

Results

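CXC chemokines are small signalling proteins with a paired cysteine motif, and 8 of their genes were followed here across 4 mouse testis libraries and across the cell classes within them: Cxcl1, Cxcl2, Cxcl3, Cxcl5, Cxcl10, Cxcl12, Cxcl14 and Cxcl16. The genes were taken by symbol from the 31017 symbols that the deposited matrices list, and all 8 were found. The question was which cells held the RNA of each ligand, and when.

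The series compared testis in the animal with testis in organ culture by single-cell RNA sequencing, with 1 library in each of 4 groups. All mice were of the C57BL/6 background and carried the Acr-Gfp transgene, a green fluorescent protein gene driven by the promoter of acrosin, a germ cell gene. For the culture groups, testes were taken at 7 days postpartum (dpp), freed of their capsule and cut into fragments. These lay on agarose, covered by a PDMS ceiling chip, in α-MEM medium supplemented with AlbuMAX, for 2 days or for 7 days, and are called explants below and culture in the plots. The other groups were testes taken at 9 dpp and at 14 dpp and not cultured, so that the 2-day explants were set against 9 dpp and the 7-day explants against 14 dpp. The labels used here do not say how many animals were pooled into a library, and their library text speaks of female gonads, whereas Sertoli-like cells, the supporting cells of the testis, made up 11.3% to 17.3% of the cells of each library.

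With 1 library per group no difference between groups could be tested. Intervals below are 95% intervals that cover counting error only, and a log2 ratio is that of CPM + 1, where CPM is the number of unique molecular identifiers (UMIs) of a gene per 1000000 UMIs. The kept cells numbered 4816 to 6877 per library, with 32078508 to 57585867 UMIs in all and a median of 3606 UMIs per cell in the 2-day explants, 5577.5 in the 7-day explants, 8544.5 at 9 dpp and 6447 at 14 dpp. Of the 24851 barcodes, 323 sequences occurred in 2 libraries, and their part in the results was not tested. Cells were put in 7 classes by the UMIs of marker genes, none of which is a CXC gene. Stromal and peritubular myoid (contractile) cells were kept as 1 class of 1134 to 2516 cells per library, and pericyte-, Leydig-, Sertoli-, endothelial-, macrophage- and germ-like cells formed the others. Neutrophil markers were near absent in every library, with 64 to 124 UMIs over 9 genes, of which Ly6g and Retnlg were at 0 throughout, and the list summed to 1.14 to 3.87 CPM.

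In this family, Cxcl1, Cxcl2, Cxcl3 and Cxcl5 carry the ELR (glutamate-leucine-arginine) motif, signal through Cxcr2 and are known for recruiting neutrophils. Their genes are classical targets of NF-κB, the transcription factor that acts downstream of interleukin-1, tumour necrosis factor and Toll-like receptors. Cxcl10 lacks the motif, is induced by interferons together with NF-κB, and acts on Cxcr3. Cxcl12 is a homeostatic ligand of Cxcr4 and of the scavenging receptor Ackr3, and Cxcr4 on germ cells is known from their migration and from the stem cell niche. Cxcl14 is made by epithelia and fibroblasts, and Cxcl16 is made as a membrane protein that binds Cxcr6 and can be shed by the proteases Adam10 and Adam17.

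The 4 ELR genes lie together on chromosome 5 of the mm10 assembly, on the plus strand in the GENCODE annotation, within 147 kb. Cxcl5 (ENSMUSG00000029371) lies at chr5:90759360-90761624, Cxcl3 (ENSMUSG00000029379) at chr5:90786103-90789600, Cxcl1 (ENSMUSG00000029380) at chr5:90891241-90893115 and Cxcl2 (ENSMUSG00000058427) at chr5:90903871-90905938. Cxcl10 (ENSMUSG00000034855) lies 1.44 Mb further along, at chr5:92346638-92348889 on the minus strand. Cxcl12 (ENSMUSG00000061353) is at chr6:117168535-117181367 on the plus strand. Cxcl14 (ENSMUSG00000021508) is at chr13:56288643-56296551 and Cxcl16 (ENSMUSG00000018920) at chr11:70453983-70459984, both on the minus strand. All 8 are protein-coding. Transcripts of Cxcl2 and Cxcl3 share an exact run of 157 bases, so reads from it cannot be assigned between them. The shared 31-base words lie 1705 to 2006 bases from the 3′ end of the longest Cxcl2 transcript. That transcript, of 2066 bases in a gene of 2068, still holds the introns. The distance in spliced transcripts is therefore shorter and was not worked out. No other pair among the 8 shares a word of 31 bases.

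The 250 bases upstream of the start of Cxcl1, Cxcl2, Cxcl3 and Cxcl10 are printed from RefSeq (GRCm38.p6), 5′ to 3′ on the strand of the gene, because these genes were all higher in culture than in the age-matched testis and carry matches to the motifs of the pathways named above. Cxcl14 was also higher in culture and has a match, given below, but is not printed. Capitals mark matches to the κB consensus, to which NF-κB binds, searched as GGG, a purine, any base, 3 pyrimidines and CC, and to the core of the interferon-stimulated response element (ISRE), searched as GAAA, any 2 bases and GAAA, on both strands. The windows are chr5:90890995-90891244 for Cxcl1, chr5:90903649-90903898 for Cxcl2 and chr5:90785851-90786100 for Cxcl3, on the plus strand, and chr5:92348890-92349139 on the minus strand for Cxcl10.
Cxcl1: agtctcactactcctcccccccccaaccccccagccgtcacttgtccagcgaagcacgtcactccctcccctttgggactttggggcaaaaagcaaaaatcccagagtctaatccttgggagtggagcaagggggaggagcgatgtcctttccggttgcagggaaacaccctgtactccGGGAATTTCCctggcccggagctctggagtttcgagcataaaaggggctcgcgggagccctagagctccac
Cxcl2: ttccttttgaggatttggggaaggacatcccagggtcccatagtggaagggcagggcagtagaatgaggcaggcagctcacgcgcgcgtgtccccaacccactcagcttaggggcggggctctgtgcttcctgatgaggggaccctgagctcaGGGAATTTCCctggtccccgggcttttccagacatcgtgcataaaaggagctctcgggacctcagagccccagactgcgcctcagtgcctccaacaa
Cxcl3: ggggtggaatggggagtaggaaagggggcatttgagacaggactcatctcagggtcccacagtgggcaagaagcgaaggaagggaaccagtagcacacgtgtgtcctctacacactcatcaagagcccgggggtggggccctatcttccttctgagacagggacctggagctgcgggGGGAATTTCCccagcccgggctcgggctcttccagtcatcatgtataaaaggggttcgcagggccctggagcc
Cxcl10: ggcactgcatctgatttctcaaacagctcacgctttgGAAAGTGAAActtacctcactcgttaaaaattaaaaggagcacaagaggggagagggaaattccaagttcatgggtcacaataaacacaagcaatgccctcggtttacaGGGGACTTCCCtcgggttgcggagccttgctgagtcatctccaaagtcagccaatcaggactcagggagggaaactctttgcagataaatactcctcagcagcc

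Promoter windows of 300 bases, from 250 before the start to 50 after it, were matched for 6 of the 8 genes, and those of Cxcl5 and Cxcl16 were not matched. The same 10 bases, GGGAATTTCC, stood at -71 to -62 from the RefSeq start in Cxcl1, at -97 to -88 in Cxcl2 and at -73 to -64 in Cxcl3. Of all 27025 promoter windows, 24 (0.0888%) held this sequence, which was read from the Cxcl1 window itself, so that the share is a description only. The κB consensus matched in 4 of the 6 windows, against 5.55% of all windows. In Cxcl10 it matched at -104 to -95 and at -103 to -94, which overlap. With any base allowed at the sixth position, a form chosen after seeing the data, the consensus also matched in Cxcl10 at -159 to -150 (GGGAAATTCC, in lower case in the printed sequence), and it was found in the same 4 windows, against 8.18% of all windows. The ISRE core was found in Cxcl10 (GAAAGTGAAA, -213 to -204) and in Cxcl14 (GAAACAGAAA, -172 to -163), against 3.49% of all windows. Such matches describe the sequence and were not tested for binding. The Cxcl12 window held no match to these motifs.

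Over whole libraries, 7 of the 8 ligands were at least 2-fold higher in the 2-day explants than at 9 dpp, where 4.19% of the 16616 genes with at least 50 UMIs were. In the 7-day explants against 14 dpp, 7 of the 8 were again higher, against 3.6% of genes. Cxcl12 was the exception in both, though close to the limit, and with TMM scaling its log2 ratio in the 2-day pair was 1.0007, just past it. Between 9 dpp and 14 dpp none of the 8 differed 2-fold in the ratio of CPM + 1, where 4.09% of genes were higher and 1.97% lower at 14 dpp. Cxcl2, Cxcl3, Cxcl5 and Cxcl10 lay below 1 CPM at both ages, where this ratio cannot reach 2-fold. Their place in that count was thus fixed in advance. With 0.1 added in place of 1, Cxcl2 was at least 2-fold higher at 14 dpp, as were 6.97% of genes. From the 2-day to the 7-day explants 6 of the 8 were at least 2-fold lower, against 2.37% of genes, and Cxcl12 and Cxcl16 were not. Cxcl3 and Cxcl5 reached the minimum of 50 UMIs through the explants alone, so their place in these counts is no support for them. By size of the log2 ratio in the 2-day explants against 9 dpp, Cxcl5 ranked 3, Cxcl1 13, Cxcl10 17 and Cxcl2 18 among the 16616 genes. In a whole library, more cells of a type and more RNA per cell cannot be told apart, and stromal- or myoid-like cells held 34.2% of the UMIs of the 2-day explants, 19.0% of the 7-day explants, 16.7% at 9 dpp and 9.03% at 14 dpp. The levels are therefore given by class below.

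**Figure D1:**
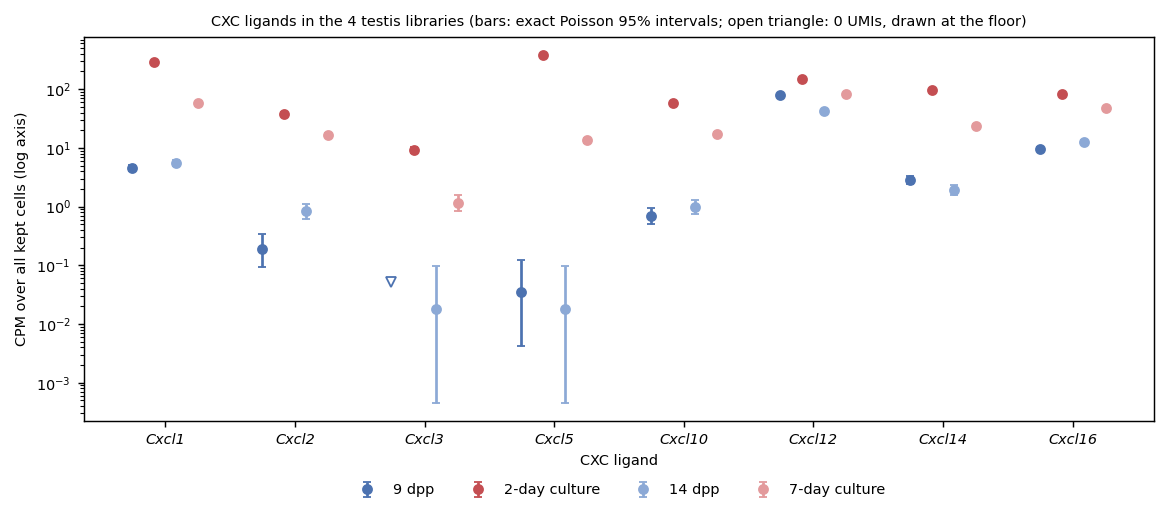
CPM of each ligand over all kept cells of a library (log axis), with exact Poisson 95% intervals; an open triangle marks a library with 0 UMIs, drawn at the floor of 3 UMIs. The 2-day explants are highest for every ligand, and Cxcl12 alone lies within 2-fold of its uncultured match, reaching the 2-fold limit in the 2-day pair with TMM scaling.

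Cxcl1, a neutrophil attractant, was at 287 CPM in the 2-day explants (9210 UMIs), 58.2 in the 7-day explants (2161 UMIs), 4.60 at 9 dpp (265 UMIs) and 5.59 at 14 dpp (314 UMIs). Both explants stood above both uncultured testes. The ratio to the uncultured match was 62.4 (55.2 to 70.8) at 2 days and 10.4 (9.25 to 11.8) at 7 days. Stromal- or myoid-like cells held 73.0% of its UMIs in the 2-day explants and 61.4% in the 7-day explants. In them it was at 612 CPM in the 2-day explants, 188 in the 7-day explants, 14.2 at 9 dpp and 18.9 at 14 dpp. The class ratio was 43.1 (36.4 to 51.4) at 2 days and 9.95 (8.09 to 12.4) at 7 days. After thinning each cell to 2000 UMIs and leaving out shallower cells, which numbered 286, 95, 38 and 97 in the 2-day and 7-day explants and at 9 and 14 dpp, a Cxcl1 UMI was found in 33.6%, 16.1%, 1.88% and 2.03% of cells of the class. Without thinning the shares were 42.5%, 23.2%, 4.58% and 3.53%.

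Sertoli-like cells were the next largest holders of Cxcl1, with 18.0% of its UMIs in the 2-day explants and 21.5% in the 7-day explants. They lay mostly in clusters 7 and 17 in the explants, 12 at 9 dpp, and 15 and 20 at 14 dpp. Their level was 234 CPM in the 2-day explants, 68.9 in the 7-day explants, 2.18 at 9 dpp and 6.01 at 14 dpp, which was 107 (76.0 to 156) and 11.5 (9.03 to 14.7) times the uncultured match. After thinning, 25.5% (22.4 to 28.8) of 744 Sertoli-like cells of the 2-day explants held a Cxcl1 UMI against 8.05% in the 7-day explants, 0.46% at 9 dpp and 0.977% at 14 dpp. Unthinned shares were 33.1%, 24.7%, 3.05% and 7.14%, at median depths of 3290, 9386, 13980.5 and 10090 UMIs, and 445, 21, 15 and 73 cells were too shallow. Germ-like cells, which stand here for free RNA in the droplets, held a Cxcl1 UMI in 1.80% of thinned cells in the 2-day explants and 0.327% in the 7-day explants, and at 10.5 and 1.07 CPM. Sertoli-like cells stood above that level in both explants. Of the 6 ligands with enough UMIs in Sertoli-like cells, Cxcl2, Cxcl5, Cxcl10 and Cxcl16 reached the minimum through the explants alone, so that the counts are no support for them. Over the 6, 5 were at least 2-fold higher in the 2-day explants than at 9 dpp (6.48% of 12302 genes), 4 in the 7-day explants than at 14 dpp (9.87%), and 5 lower at 7 than at 2 days (3.74%). Of these, Cxcl5 lay near the germ-like level in the 2-day explants, at 12.5 against 10.3 CPM, while Cxcl2 was at 15.2 against 0.990 and Cxcl10 at 7.05 against 1.24.

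Leydig-like cells, the steroid-producing cells of the interstitium, held Cxcl1 in the uncultured testis too. Their level was 303 CPM in the 2-day explants, 189 in the 7-day explants, 47.9 at 9 dpp and 56.9 at 14 dpp. At 9 dpp they held 22.3% of the library's Cxcl1 UMIs in 85 cells, and at 14 dpp 30.9% in 122 cells. At 9 dpp 1 cell gave 37.3% of that class's Cxcl1 UMIs. Under a stricter cut on the marker UMIs, 23 of 67 Leydig-like cells of the 2-day explants and 31 of 63 of the 7-day explants kept the class. At 9 dpp 70 of 85 did, and at 14 dpp 100 of 122. The Leydig-like comparisons here and below thus set more weakly marked cells of the explants against better marked ones. The part of this in the ratios was not tested. Pericyte-like cells, the mural cells of small vessels, reached 1935 CPM (1694 to 2200) in the 2-day explants, in 35 cells, against 176 in the 7-day explants, 66.0 at 9 dpp and 36.3 at 14 dpp, where all 4 UMIs came from 1 cell. In the 2-day explants 1 cell gave 27.0% of the 233 UMIs. Endothelial-like cells were at 80.1, 133, 44.1 and 23.8 CPM in the same order. Endothelial-like cells were the only class with at least 20 cells per library in which Cxcl1 was higher in the 7-day than in the 2-day explants.

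Cxcl2, a close relative of Cxcl1, was at 38.2 CPM in the 2-day explants (1226 UMIs), 16.7 in the 7-day explants (618 UMIs), 0.191 at 9 dpp (11 UMIs) and 0.836 at 14 dpp (47 UMIs). Its ratio was 200 (111 to 402) at 2 days and 19.9 (14.8 to 27.4) at 7 days. Between 9 dpp and 14 dpp the ratio of CPM was 4.38 (2.24 to 9.36), while the log2 ratio of CPM + 1 was 0.62, since the added 1 exceeds both levels. In the 2-day explants 70.1% (67.5 to 72.7) of its UMIs lay in stromal- or myoid-like cells and 14.9% (13 to 17) in macrophage-like cells. In the 7-day explants the shares were 6.63% (4.80 to 8.89) and 78.2% (74.7 to 81.4). The class that held most Cxcl2 thus differed between the explants, and at both uncultured ages it was the macrophage-like class, with 54.5% of 11 UMIs and 48.9% of 47 UMIs. At 9 dpp 5 of those 6 macrophage-like UMIs came from 1 cell.

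Within stromal- or myoid-like cells Cxcl2 was at 78.3 CPM in the 2-day explants and 5.82 in the 7-day explants, and at 0 UMIs at both 9 dpp and 14 dpp. Against the floor of 3 UMIs per class and library, this was at least 252-fold higher in the 2-day explants and at least 9.85-fold higher in the 7-day explants. Within macrophage-like cells it was at 2097 CPM (1805 to 2424) in 10 cells of the 2-day explants, 739 (675 to 808) in 19 cells of the 7-day explants, 21.5 in 28 cells at 9 dpp and 63.6 in 49 cells at 14 dpp. Cxcl2 UMIs were found in 8 of the 10 macrophage-like cells of the 2-day explants and in 17 of the 19 of the 7-day explants, against 2 of 28 and 7 of 49 in the uncultured testes. The macrophage-like cells of the 7-day explants were deep, with a median of 37246 UMIs, and after thinning 13 of 18 held Cxcl2, against 8 of 10, 2 of 27 and 3 of 47. The macrophage marker list as a whole was at 31.7 CPM in the 2-day explants, 320 in the 7-day explants, 200 at 9 dpp and 226 at 14 dpp, with all 13 genes detected in each library. Its part in the shift of Cxcl2 between classes was not tested.

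Cxcl3, the third ligand of this subgroup, was found almost only in macrophage-like cells of the explants. It had 294 UMIs in the 2-day explants (9.17 CPM), 43 in the 7-day explants (1.16 CPM), 0 at 9 dpp and 1 at 14 dpp. It was at least 176-fold higher in the 2-day explants against the floor of 3 UMIs per library, and in the 7-day explants the ratio was 65.1 (11.1 to 2630). Of the 294 UMIs, 270 lay in 5 macrophage-like cells, and 1 cell alone held 113. Of the 43 UMIs, 42 lay in 2 such cells. Its values therefore rest mostly on 7 cells, and 13 UMIs (1.18 CPM) were found in the 2516 stromal- or myoid-like cells of the 2-day explants.

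Cxcl5, an ELR ligand of epithelial and mesenchymal cells, was found almost only in the explants. It had 12376 UMIs in the 2-day explants (386 CPM), 501 in the 7-day explants (13.5 CPM), 2 at 9 dpp and 1 at 14 dpp. Its ratio was 11100 (3070 to 91700) at 2 days and 759 (136 to 30000) at 7 days, with the width of these intervals set by the 2 UMIs and the 1 UMI below. Stromal- or myoid-like cells held 96.9% (96.6 to 97.2) of its UMIs in the 2-day explants and 92.0% (89.3 to 94.2) in the 7-day explants. In that class it was at 1092 CPM and 65.4 CPM, and at 0 UMIs at 9 dpp and 14 dpp, so at least 3510-fold and at least 111-fold higher. The 3 UMIs of the uncultured testes lay in germ-like cells. Few UMIs but high levels were found in small classes of the 2-day explants. Pericyte-like cells were at 349 CPM (251 to 471; 42 UMIs in 7 of 35 cells), and the pericyte-like Leiden cluster of 55 cells was at 1147 CPM. Macrophage-like cells were at 539 CPM (396 to 716), with 39 of 47 UMIs in 1 of the 10 cells.

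Within the stromal- or myoid-like class the Cxcl5 signal was uneven. A UMI was found in 24.3% (22.6 to 26.2) of thinned cells of the 2-day explants and in 4.74% (3.69 to 5.98) of those of the 7-day explants, and in 0 of 1490 cells at 9 dpp and 0 of 1037 at 14 dpp, which by 3 counts allows shares of cells with a UMI at this depth of up to 0.201% and 0.289%. Unthinned shares were 28.3% and 8.48%. Germ-like cells stood at 1.63% and 0.123%. Cells with the ligand held on average 16.8 UMIs of it in the 2-day explants and 3.60 in the 7-day explants, without thinning. Median depths were 3705.5 UMIs in the class and 3539 in germ-like cells of the 2-day explants, and 4103 and 6431 in the 7-day explants. Thus both the share of cells and the UMIs per cell with the ligand were lower at 7 days.

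**Figure D2:**
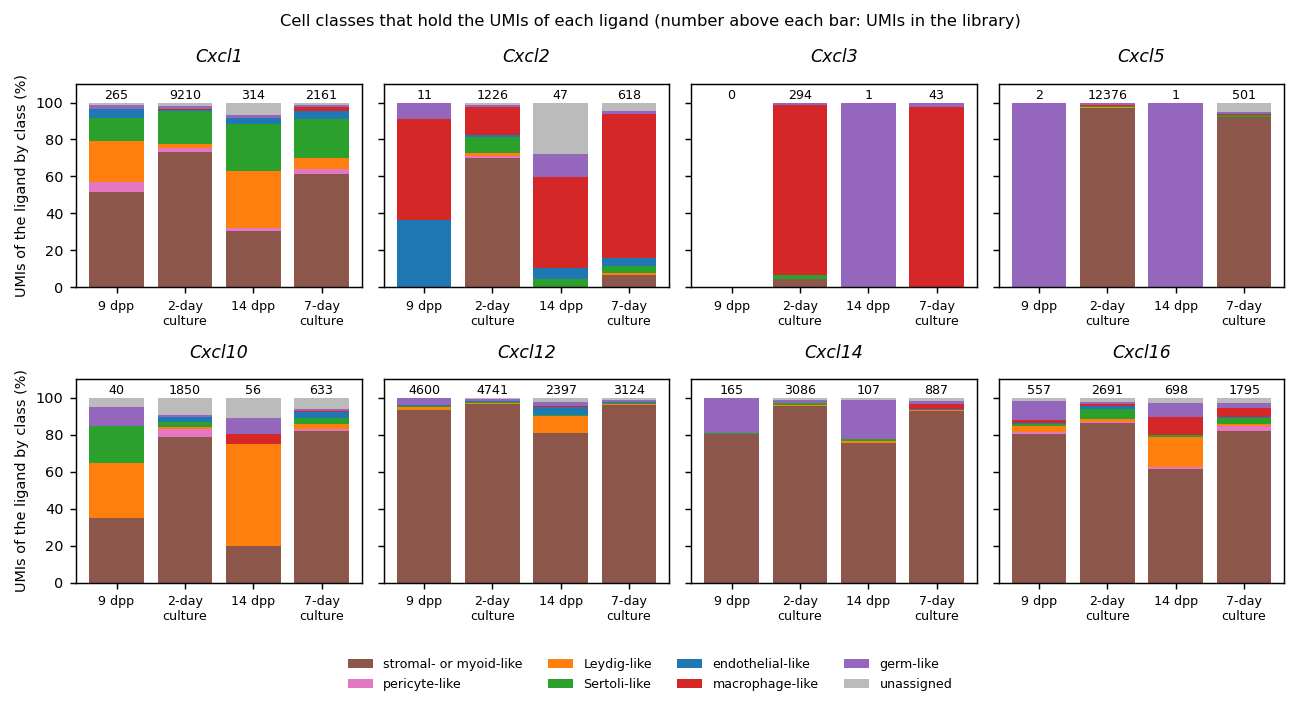
Percentage of the UMIs of each ligand held by each cell class in each library, with the number of UMIs above each bar. Cxcl5, Cxcl12 and Cxcl14 come mostly from stromal- or myoid-like cells in the explants, Cxcl3 from macrophage-like cells, and Cxcl2 moves from 70.1% stromal- or myoid-like in the 2-day explants to 78.2% macrophage-like in the 7-day explants.

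Cxcl10, the interferon-induced ligand of Cxcr3, was at 57.7 CPM in the 2-day explants (1850 UMIs), 17.1 in the 7-day explants (633 UMIs), 0.695 at 9 dpp (40 UMIs) and 0.996 at 14 dpp (56 UMIs). The ratio was 83.0 (60.7 to 117) at 2 days and 17.1 (13 to 22.9) at 7 days. Stromal- or myoid-like cells held 78.8% of its UMIs in the 2-day explants and 81.8% in the 7-day explants, at 133 and 73.5 CPM, against 1.45 CPM at 9 dpp and 2.17 at 14 dpp. In the uncultured testis Leydig-like cells held 12 of 40 UMIs at 9 dpp, in 4 cells, and 31 of 56 UMIs (55.4%) at 14 dpp, in 8 cells. The class with most Cxcl10 UMIs at 14 dpp was therefore another than in the explants. Within Leydig-like cells the ratio to the uncultured match was 3.27 (1.47 to 7.5) at 2 days, on 17 and 12 UMIs, and 1.70 (0.919 to 3.08) at 7 days, where the interval includes 1.

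The highest class level of Cxcl10 was in the pericyte-like cells of the 2-day explants, at 664 CPM (527 to 827) in 35 cells, of which 16 held a UMI, and it was 21.2 CPM in 42 cells of the 7-day explants and 0 UMIs in the uncultured libraries. Cells of no class carried 9.41% of the Cxcl10 UMIs of the 2-day explants, and 1 such cell held 93 of their 174 UMIs. Endothelial-like cells were at 77.1 CPM in the 2-day explants and 30.2 in the 7-day explants, where 19 of 20 UMIs came from 1 cell. Among stromal- or myoid-like cells thinned to 2000 UMIs, 11.5% (10.2 to 12.9) held Cxcl10 in the 2-day explants, 5.09% (4.01 to 6.37) in the 7-day explants, 0.47% at 9 dpp and 0.289% at 14 dpp, and germ-like cells held it in 0.293%, 0.0409%, 0% and 0.0275%. The unthinned shares of the class were 17.4%, 8.48%, 0.851% and 0.529%. From 2 to 7 days the level in this class fell by less than 2-fold, to 0.554 (0.500 to 0.613) of its value.

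Cxcl12, the homeostatic ligand, did not follow the others. Over whole libraries it was at 148 CPM in the 2-day explants, 84.2 in the 7-day explants, 79.9 at 9 dpp and 42.6 at 14 dpp, a ratio of 1.85 (1.78 to 1.93) and of 1.97 (1.87 to 2.08) to the uncultured match. In stromal- or myoid-like cells, which held 80.9% to 96.6% of its UMIs, it was at 417 CPM (405 to 429) in the 2-day explants, 426 (410 to 441) in the 7-day explants, 446 (433 to 459) at 9 dpp and 382 (365 to 399) at 14 dpp. Within the class the ratio to the uncultured match was 0.935 (0.897 to 0.975) at 2 days and 1.11 (1.05 to 1.18) at 7 days. With TMM scaling the log2 ratio at 2 days turned from -0.10 to 0.09, and the median over the 12209 genes tested in the class was -0.18 without it. Thinned cells of the class held a Cxcl12 UMI in 35.8% (33.8 to 37.8), 41.1% (38.5 to 43.7), 39.2% (36.7 to 41.7) and 36.6% (33.7 to 39.7), and germ-like cells in 0.503%, 0.45%, 1.08% and 0.413%. The unthinned shares of the class were 47.0%, 56.1%, 59.2% and 49.6%. The cells of the class lay in different clusters, mostly clusters 0 and 5 in the 2-day explants (1156 and 1325 cells), 0 and 14 in the 7-day explants (665 and 779), and 4 and 8 at 9 dpp (758 and 744) and at 14 dpp (633 and 438). Its make-up differed too, when cells were divided by which of the stromal and myoid marker scores was higher by a set margin. Within its stromal-leaning cells Cxcl12 was lower in the explants, at 461 (448 to 475) CPM in the 2-day explants against 676 (655 to 698) at 9 dpp, and at 526 (507 to 546) in the 7-day explants against 666 (635 to 700) at 14 dpp. Within its myoid-leaning cells it was at 34.7 (19.4 to 57.2) against 95.2 (82.5 to 109) in the 2-day pair and at 91.6 (73.4 to 113) against 111 (96.2 to 129) in the 7-day pair, where the intervals overlap. The near-level values thus hold for the class as a whole and not within its stromal-leaning part. The cells that leaned to stromal, to neither and to myoid numbered 2114, 254 and 148 in the 2-day explants, 1079, 179 and 251 in the 7-day explants, 883, 289 and 356 at 9 dpp, and 536, 229 and 369 at 14 dpp.

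In endothelial-like cells Cxcl12 was lower in the explants, and in Leydig-like cells it was lower at 7 days. In endothelial-like cells it was at 35.6 CPM in the 2-day explants, 19.6 in the 7-day explants, 116 at 9 dpp and 240 at 14 dpp. The ratio was 0.308 (0.175 to 0.536) at 2 days and 0.0817 (0.0421 to 0.146) at 7 days, in 21 to 58 cells per library, and 1 cell held 45.8% of the UMIs of the 2-day explants and 35.6% at 14 dpp. In Leydig-like cells it was at 37.5 CPM in the 2-day explants, 43.3 in the 7-day explants, 54.4 at 9 dpp and 127 at 14 dpp. There the interval of the 2-day ratio, 0.688 (0.396 to 1.15), included 1, and the 7-day ratio was 0.340 (0.221 to 0.506). Between 9 and 14 dpp the Leydig-like level was 2.34-fold higher (1.77 to 3.12) and the endothelial-like level 2.08-fold higher (1.40 to 3.16), while the whole-library level was 0.534 (0.508 to 0.561) of that at 9 dpp. In Sertoli-like cells Cxcl12 was low but higher in the 2-day explants, at 4.23 against 1.65 CPM, beside 3.96 and 5.18 in germ-like cells. Pericyte-like cells held 6 and 7 Cxcl12 UMIs at 9 and 14 dpp and 0 in both explants. The pericyte-like Leiden cluster was at 67.4 CPM in the 2-day explants and 0 in the 7-day explants, against 61.4 at 9 dpp and 175 at 14 dpp. The 0 of the 2-day explants thus depended on the class rule.

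Cxcl14, a ligand of fibroblasts and epithelia, was at 96.2 CPM in the 2-day explants (3086 UMIs), 23.9 in the 7-day explants (887 UMIs), 2.87 at 9 dpp (165 UMIs) and 1.90 at 14 dpp (107 UMIs). The ratio was 33.6 (28.7 to 39.5) at 2 days and 12.6 (10.3 to 15.5) at 7 days. Stromal- or myoid-like cells held 95.8% of its UMIs in the 2-day explants, 92.9% in the 7-day explants, 80.6% at 9 dpp and 75.7% at 14 dpp, the remainder at the uncultured ages being mostly UMIs of germ-like cells at 1.02 and 0.680 CPM. In the class it was at 269, 117, 13.8 and 16.0 CPM. Thinned cells held it in 16.8% (15.3 to 18.4), 13.6% (11.9 to 15.5), 2.08% (1.42 to 2.94) and 2.41% (1.57 to 3.54), and germ-like cells in 0.838%, 0.0819%, 0.12% and 0.0825%. The unthinned shares of the class were 24.0%, 22.9%, 5.10% and 4.14%. From 2 to 7 days the level in the class was 0.434 (0.401 to 0.469) of its value, and the share of cells with a UMI fell from 16.8% to 13.6%. In the macrophage-like cells of the 7-day explants 10 of 19 cells held Cxcl14 (38.3 CPM), but after thinning 1 of 18 did, and it had 0 UMIs in that class in the other 3 libraries.

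Cxcl16, the membrane-bound ligand, was at 83.9 CPM in the 2-day explants (2691 UMIs), 48.4 in the 7-day explants (1795 UMIs), 9.67 at 9 dpp (557 UMIs) and 12.4 at 14 dpp (698 UMIs). The ratio was 8.67 (7.91 to 9.52) at 2 days and 3.89 (3.57 to 4.26) at 7 days. In stromal- or myoid-like cells it was at 211 CPM (203 to 220) in the 2-day explants and 208 (198 to 219) in the 7-day explants, against 46.4 (42.2 to 50.9) at 9 dpp and 84.5 (76.7 to 92.9) at 14 dpp. In this class the ratio of 7 to 2 days was 0.987 (0.924 to 1.05), an interval that includes 1, and its sign turned with doublet calls kept or by clusters. The ratios of Cxcl1, Cxcl2, Cxcl5, Cxcl10 and Cxcl14 lay at or below 0.554, and these differences were not tested. Thinned cells of the class held Cxcl16 in 32.6%, 27.9%, 10.1% and 14.4%, and germ-like cells in 0.754%, 0.205%, 0.28% and 0.275%. The unthinned shares of the class were 49.8%, 48%, 23.9% and 29.5%.

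Macrophage-like cells held Cxcl16 in all 4 libraries, at 264 CPM in the 2-day explants, 130 in the 7-day explants, 35.8 at 9 dpp and 188 (146 to 238) at 14 dpp. In Leydig-like cells it was at 67.4 CPM in the 2-day explants, 27.8 in the 7-day explants, 15.4 at 9 dpp and 66.8 at 14 dpp. There the 2-day ratio was 4.37 (2.44 to 8.06) and the 7-day ratio 0.416 (0.238 to 0.688), so the culture stood higher than its match at 2 days and lower at 7 days. The Leydig-like cells of the explants were the more weakly marked ones, as given above. Of 4 ligands with enough UMIs in Leydig-like cells, 3 (Cxcl1, Cxcl10 and Cxcl16) were at least 2-fold higher in the 2-day explants than at 9 dpp (5.49% of 7346 genes). At 7 days 1 (Cxcl1) was at least 2-fold higher in the 7-day explants than at 14 dpp (6.34%) and 2 (Cxcl12 and Cxcl16) were lower (8.73%). In Sertoli-like cells it was at 21.9 CPM in the 2-day explants and 8.91 in the 7-day explants, against 0.397 and 0.526 at 9 and 14 dpp, on 6 and 7 UMIs. After thinning 4.03% (2.74 to 5.71) of Sertoli-like cells of the 2-day explants held a Cxcl16 UMI, against 10.1% without thinning. The Sertoli-like level was above the 3.47 CPM of germ-like cells in that library.

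**Figure D3:**
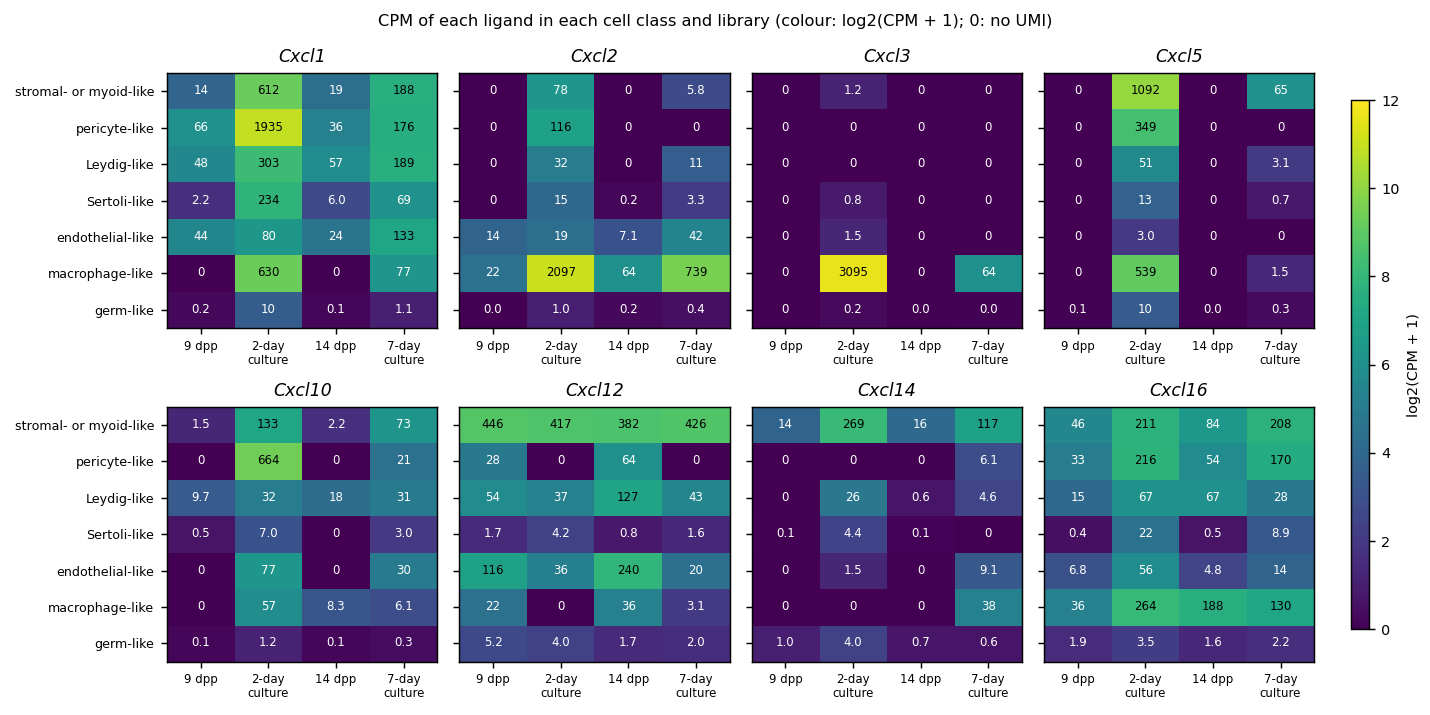
CPM of each ligand in 7 cell classes and 4 libraries, printed in each square and coloured as log2(CPM + 1); 0 means no UMI and 0.0 a level that rounds to it. Cxcl12 lies between 382 and 446 CPM over the whole stromal- or myoid-like class in all 4 libraries while its endothelial-like level is lower in the explants, and Cxcl2 and Cxcl3 peak in the 10 macrophage-like cells of the 2-day explants.

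Counted within stromal- or myoid-like cells alone, 6 of the 7 ligands with enough UMIs (all but Cxcl3) were at least 2-fold higher in the 2-day explants than at 9 dpp, where 5.72% of 12209 genes were. The same number was higher in the 7-day explants than at 14 dpp, against 4.78% of genes. None of the 7 differed 2-fold between 9 and 14 dpp, where 2.22% of genes were higher and 2.93% lower. Cxcl2 and Cxcl5 had 0 UMIs in the class at both ages, so their place in that count was fixed in advance. From 2 to 7 days of culture 4 of the 7 were at least 2-fold lower, against 3.39% of genes: Cxcl1, Cxcl2, Cxcl5 and Cxcl14. Cxcl2, Cxcl5 and Cxcl10 passed the minimum through the explants alone here, so that the counts are no support for them. Cxcl10, Cxcl12 and Cxcl16 stayed within 2-fold over those days in this class.

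**Figure D4:**
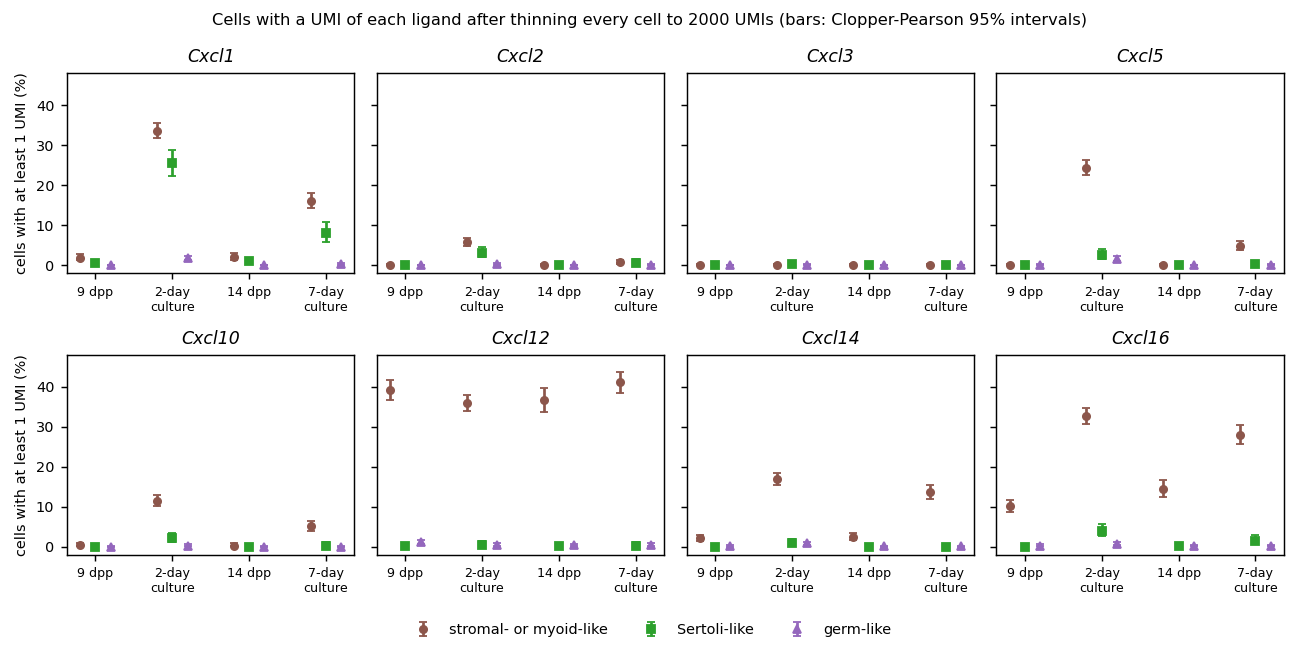
Percentage of cells with at least 1 UMI of each ligand after thinning each cell to 2000 UMIs, in stromal- or myoid-like, Sertoli-like and germ-like cells, with Clopper-Pearson 95% intervals. Cxcl12 lies between 35.8% and 41.1% of stromal- or myoid-like cells in all 4 libraries, Cxcl5 is at 24.3% in the 2-day explants and 0 in the uncultured testes, and Cxcl1 reaches 25.5% of Sertoli-like cells.

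The stromal- or myoid-like class was divided by which of its marker scores was higher, a range and not a set of types. Stromal-leaning cells held more Cxcl12 than myoid-leaning cells in every library, with the values given above. Cxcl5 leaned the same way, with 1197 CPM in stromal-leaning and 287 in myoid-leaning cells of the 2-day explants, and 84.6 against 5.20 in the 7-day explants. Cxcl1 was closer to even in the 2-day explants, at 649 against 500 CPM, and further apart in the 7-day explants, at 223 against 62.4. Cxcl10 was at 139 (132 to 147) against 164 (128 to 207) CPM in the 2-day explants, with intervals that overlap, and at 92.2 against 5.20 in the 7-day explants. Cxcl16 was at 215 (206 to 224) against 171 (134 to 215) CPM in the 2-day explants, 233 (221 to 247) against 128 (106 to 153) in the 7-day explants, 42.6 (37.4 to 48.3) against 55.6 (46.0 to 66.6) at 9 dpp and 86.9 (75.7 to 99.4) against 78.6 (65.9 to 93.1) at 14 dpp, so that the intervals were apart in the 7-day explants alone. Cxcl14 was lower in stromal-leaning than in myoid-leaning cells at 9 dpp, at 5.11 (3.42 to 7.33) against 23.6 (17.5 to 31.1) CPM. In the other 3 libraries it was higher in them, at 24.4 against 7.04 at 14 dpp, 271 against 99.5 in the 2-day explants and 143 against 32.3 in the 7-day explants. The median depths of the 148 myoid-leaning and 2114 stromal-leaning cells of the 2-day explants were 2431.5 and 3891.5 UMIs.

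Clusters formed without the CXC genes and the listed pathway genes also divided the class. A cluster with 1325 cells in the 2-day explants and 1358 over all libraries, 96.8% of them stromal-leaning, held Cxcl5 at 1599 CPM, Cxcl12 at 602, Cxcl1 at 746, Cxcl14 at 371 and Cxcl10 at 185. Another cluster of 1156 cells in that library, with a higher myoid score and 56.1% of its cells over all libraries stromal-leaning, held them at 162, 84.0, 357, 92.7 and 71.7 CPM. Cxcl16 was at 205 and 225 CPM in these clusters, and so differed less between them than the other ligands named. The uncultured cells lay in a different pair of clusters, 1 with 99.6% of its cells stromal-leaning, where Cxcl12 was at 768 CPM at 9 dpp and 762 at 14 dpp, and 1 with 14.8%, where it was at 119 and 104. 

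The ligands shared cells in the 2-day explants. Of thinned stromal- or myoid-like cells with a Cxcl5 UMI, 62.4% (58.2 to 66.5) also held Cxcl1, against 24.4% (22.3 to 26.5) of cells without. For Cxcl2 the shares were 15.1% and 2.79%, for Cxcl12 57.5% and 28.8%, for Cxcl10 17.9% and 9.43%, for Cxcl14 22.8% and 14.9% and for Cxcl16 40.5% and 30.1%. Several other pairs had overlapping intervals, among them Cxcl14 with Cxcl1, Cxcl2, Cxcl10, Cxcl12 and Cxcl16, and Cxcl16 with Cxcl2, Cxcl10 and Cxcl12. Cxcl16, for example, was found in 29.3% (24.8 to 34.2) of Cxcl14-holding cells and 33.3% (31.2 to 35.5) of the others. All these cells come from 1 library. At least 3 of the 8 ligands were found in 13.2% (exactly 3), 7.49% (exactly 4) and 2.96% (5 or more) of the 2230 thinned cells of the 2-day explants, and in 8.20%, 1.91% and 0.424% of the 7-day explants. At 9 dpp 0.134% of cells and at 14 dpp 0.579% held exactly 3, and 0 cells held more. Cells in which none of the 8 was detected made up 22.4% in the 2-day explants, 33.8% in the 7-day explants, 52.1% at 9 dpp and 51.6% at 14 dpp.

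**Figure D5:**
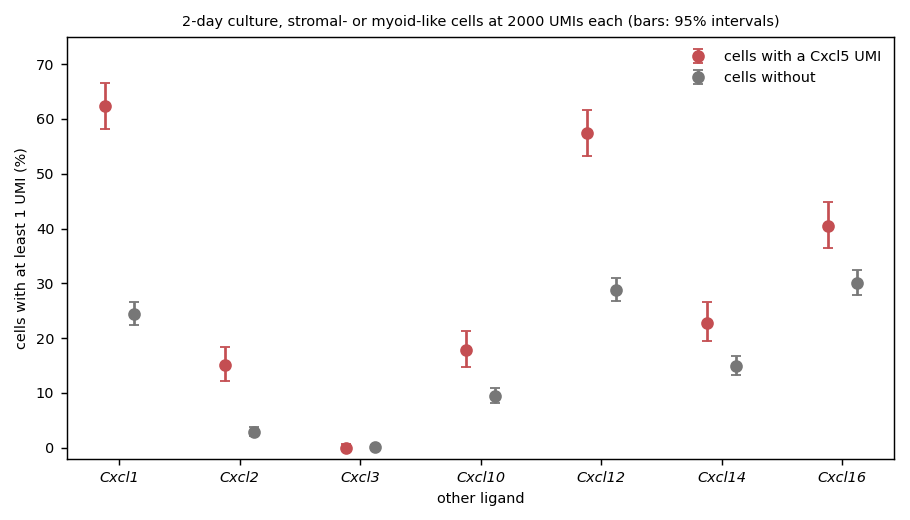
Percentage of stromal- or myoid-like cells of the 2-day explants, each thinned to 2000 UMIs, that hold a UMI of each other ligand, among cells with (red) and without (grey) a Cxcl5 UMI, with Clopper-Pearson 95% intervals. Cxcl1 is found in 62.4% of cells with Cxcl5 and in 24.4% of cells without.

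Of 9 receptor genes, 5 had enough UMIs. In the ratio of CPM + 1 none of them was 2-fold higher in either culture, and 1, Cxcr2, was at least 2-fold lower in the 2-day explants than at 9 dpp, where 3.41% of genes were. Cxcr2, the receptor of the ELR ligands, lay mostly in germ-like cells of the uncultured testis, with 149 of 167 UMIs at 9 dpp and 91 of 98 at 14 dpp. In those cells it was at 0.495 CPM in the 2-day explants, 0.678 in the 7-day explants, 4.89 at 9 dpp and 2.69 at 14 dpp. Cxcr4, the receptor of Cxcl12, was at its highest in endothelial-like cells except at 14 dpp, where 6 UMIs in pericyte-like cells gave more. In endothelial-like cells it was at 96.4 CPM in the 2-day explants and 189 in the 7-day explants, against 57.7 at 9 dpp and 28.5 at 14 dpp. Over whole libraries Cxcr4 was at 5.33 CPM (4.62 to 6.13) in the 7-day explants against 2.40 (2.01 to 2.84) at 14 dpp, more than 2-fold apart without the added 1. In germ-like cells Cxcr4 was at 2.06, 1.45, 2.72 and 0.917 CPM in that order. Ackr3, which takes up Cxcl12, was at 150 and 166 CPM in endothelial-like cells of the explants and 40.8 and 78.5 at 9 and 14 dpp, while in stromal- or myoid-like cells it was at 9.38 and 6.53 CPM in the explants and 30.4 and 16.2 in the uncultured testes. Cxcr3, the receptor of Cxcl10, had 0 UMIs in both explants, 11 at 9 dpp and 6 at 14 dpp. Cxcr6, the receptor of Cxcl16, had 30 UMIs (0.808 CPM) in the 7-day explants against 8 (0.142 CPM) at 14 dpp. Of the 30, 25 lay in 3 cells of no class.

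Of 7 other CXC ligands, 6 are in the files and 3 had enough UMIs. Cxcl9, a relative of Cxcl10, was at 13.8 CPM in the 2-day explants and 1.27 in the 7-day explants, with 2 UMIs at each uncultured age, and 89.4% and 93.6% of its UMIs in the explants lay in stromal- or myoid-like cells. Cxcl13, a B cell attractant, was at 16.4 CPM in the 2-day explants, 2.32 in the 7-day explants, 0.955 at 9 dpp and 0.125 at 14 dpp. Its source differed, with 97.3% and 95.3% of UMIs in stromal- or myoid-like cells of the explants and 80.0% of 55 UMIs in Leydig-like cells at 9 dpp. Pf4 was macrophage-like in all libraries (91.3% to 95.9% of UMIs) and within 2-fold in each comparison over whole libraries. Within macrophage-like cells it was at 6522 CPM in the 2-day explants, 1359 in the 7-day explants, 5004 at 9 dpp and 4217 at 14 dpp, lowest in the 7-day explants.

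Of 17 listed inputs to the ELR ligands with enough UMIs, 10 were at least 2-fold higher in the 2-day explants than at 9 dpp and 6 in the 7-day explants than at 14 dpp, with median log2 ratios of 1.18 and 0.68, against -0.12 and 0.00 over all genes. These and the log2 ratios below are of whole libraries. Stromal- or myoid-like cells held 34.2% against 16.7% of UMIs in the 2-day pair and 19.0% against 9.03% in the 7-day pair. More cells of a type and more RNA per cell cannot be told apart in such ratios. The list was chosen with earlier results of these data known, and over all genes 4.19% and 3.6% were 2-fold higher. Csf3 and Il1a, among the 10, and Il1rn, among the 6, reached 50 UMIs through the explants alone, so their place in these counts is no support. Csf3, a neutrophil growth factor, had 387 UMIs (12.1 CPM) in the 2-day explants, 2 in the 7-day explants, 4 at 9 dpp and 5 at 14 dpp, and 96.4% of its UMIs in the 2-day explants lay in stromal- or myoid-like cells. The NF-κB pathway genes Tnfaip3 (2.80 and 1.32), Nfkbiz (2.15 and 1.60), Nfkbia (2.12 and 0.81) and Zc3h12a (1.97 and 1.05) had these log2 ratios in the 2-day and the 7-day pair. The receptor Tlr2 had 2.44 and 1.95, Zfp36, which destabilises cytokine transcripts, 1.41 and 1.68, the adaptor Myd88 1.18 and 0.62, and the tumour necrosis factor receptor Tnfrsf1a 1.12 and 0.76. Il1a, the cytokine interleukin-1α, had 52 of its 57 UMIs in the 2-day explants in macrophage-like cells, found in 8 of the 10. Il1rn, the interleukin-1 receptor antagonist, was at 5.20 CPM in the 7-day explants, with 94.8% of its UMIs in macrophage-like cells, and at 0 at 14 dpp.

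Of 9 listed interferon inputs to Cxcl10 with enough UMIs, 4 were at least 2-fold higher in the 2-day explants (4.19% of all genes) and 1 in the 7-day explants (3.6%), with median log2 ratios of 0.72 and 0.35. These ratios and those that follow are of whole libraries too, with the same limit. Irf7, a transcription factor of the interferon response, was at 88.6 CPM in the 2-day explants, 8.46 in the 7-day explants, 2.62 at 9 dpp and 4.79 at 14 dpp, and 88.9% of its UMIs in the 2-day explants lay in stromal- or myoid-like cells. Irf9, which takes part in the interferon response as a transcription factor, had a log2 ratio of 1.35 in the 2-day pair, and the interferon receptor subunit Ifnar2 had 1.33 there and 1.05 in the 7-day pair. The interferon genes Ifnb1 and Ifng had 0 UMIs and 1 UMI over the 4 libraries. Adam10 and Adam17, the proteases that shed Cxcl16, had log2 ratios of -0.24 and -0.19 in the 2-day pair, and of -0.35 and 0.01 at 7 days against 14 dpp. Of 9 listed enzymes and proteoglycans, 1 was at least 2-fold higher in the 2-day pair, beside 4.19% of all genes, and 2 were in the 7-day pair, beside 3.6% (Mmp2 and Gpc1, the latter at a log2 ratio of 1.39). Mmp2, a matrix protease that cleaves Cxcl12, was at 140 CPM in the 2-day explants, 88.7 in the 7-day explants, 37.0 at 9 dpp and 9.14 at 14 dpp, with log2 ratios of 1.89 and 3.14. Dpp4, a peptidase that trims chemokines, was at least 2-fold higher in the 7-day than in the 2-day explants, at a log2 ratio of 1.15.

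Genes most like each ligand were those with the highest Pearson correlation of log2(CPM + 1) over 26 sums of a class in a library, which share libraries and depth, so that the values describe these sums only. Cxcl5 was most like Ccl5 (r = 0.928), Hp (0.900) and Bcat1 (0.888). Cxcl12 was most like Ptgis (0.912), Lamc3 (0.897) and Itih5 (0.859), and Cxcl16 most like Lgals3bp (0.920), Lamp2 (0.893) and Plac8 (0.877). Cxcl1 was most like Timp1 (0.888), Cxcl14 like Dpt (0.870) and Cxcl10 like Clcf1 (0.814). The sums were of classes with at least 20 cells in a library, which left out the 10 and 19 macrophage-like cells of the explants, and since these held most Cxcl3 UMIs of both explants and most Cxcl2 UMIs of the 7-day explants, no likeness is given for Cxcl2 and Cxcl3. Among the ligands themselves, the highest values were between Cxcl1 and Cxcl10 (0.746) and between Cxcl5 and Cxcl10 (0.727), and Cxcl12 reached at most 0.462, with Cxcl14.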

How the data were processed

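Each of the 4 groups had 1 library, made with the Chromium Single Cell 3′ kit. The matrices deposited by the authors hold raw UMI counts per gene and barcode, made with Cell Ranger 3.0.2 on mm10 per the submitters' processing notes. How barcodes were filtered before deposit is not given in the sources used here. Kept cells had 500 genes or more and no more than 20% mitochondrial UMIs, and Scrublet calls (expected rate 6%) removed 93 to 253 doublets per library (1.89% to 3.55%). Cell classes came from the UMIs of 13 marker lists, with a score of at least 0.15, at least 3 markers and 1.2 times the next class, and these limits were set on the data. Between 10 and 25 stromal- or myoid-like cells per library lay near the limit. Leiden clusters (scanpy 1.11.5) gave the same class to at least 94.8% of the stromal- or myoid-like cells. Counts were summed per library or class. Intervals are exact Poisson, Clopper-Pearson or conditional binomial for ratios (scipy 1.17.1). Genes with at least 50 UMIs entered counts of 2-fold changes. With 1 library per group no test was made. The ligands and gene lists were chosen with earlier results of these data known. Listed genes are named where a comparison passed 2-fold or where they are a ligand's receptor or shedding enzyme. Among the genes that this rule names, 1 is counted but not reported here by name. The 3 most alike genes per ligand were found. The log2 ratio of CPM + 1 understates changes of low genes. It was tested on simulated data, in which 200 genes changed 4-fold. Among all genes with at least 50 UMIs, 158 to 175 of the 200 passed 2-fold, fewer than the 195 required, and the requirement was then set on genes of at least 5 CPM alone, where all 200 passed in each comparison. Alternatives were TMM factors, other pseudocounts, cell filters and class rules.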

Additional observations from a re-analysis of the deposited data

Results flagged for a closer look

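In stromal- or myoid-like cells Cxcl12 went opposite ways in the pairs, with a log2 ratio of -0.10 in the 2-day explants against 9 dpp and 0.16 in the 7-day explants against 14 dpp, both under 2-fold, and TMM scaling turned the former. In the stromal-leaning cells alone Cxcl12 was lower in both explants, at 461 against 676 CPM and 526 against 666. In the 2-day pair the log2 ratio of Cxcl12 was 0.98 in Sertoli-like cells, on 30 and 25 UMIs, and -0.10 in stromal- or myoid-like cells. The Sertoli-like levels, 4.23 and 1.65 CPM, stood near and below those of germ-like cells, 3.96 and 5.18 CPM, which stand for free RNA. In the 7-day pair the log2 ratio of Cxcl12 was -1.53 in Leydig-like cells and -3.55 in endothelial-like cells, against 0.16 in stromal- or myoid-like cells. Cxcl16 in Leydig-like cells had a log2 ratio of 2.06 against 9 dpp at 2 days and of -1.23 against 14 dpp at 7 days, on 18 to 114 UMIs per library. In the 7-day pair that value of -1.23 stood against 1.29 in stromal- or myoid-like cells. None of these differences was tested, since each group has 1 library. Under the stricter cut 23 of 67 and 31 of 63 Leydig-like cells of the 2-day and 7-day explants kept their class. At 9 and 14 dpp 70 of 85 and 100 of 122 did. The differences listed have more than 3 UMIs in each library compared, a limit set after the values were seen, and at least 20 cells of the class. These limits left out Cxcl12 in pericyte-like cells (0 against 7 UMIs) and in macrophage-like cells (2 against 13 UMIs, log2 ratio -3.18) of the 7-day pair. They also left out Cxcl16 in macrophage-like cells, which was 7.36-fold (3.37 to 17.3) the level of 9 dpp after 2 days but 0.692 (0.497 to 0.967) of the level of 14 dpp after 7 days, on 10 to 85 UMIs in 10 to 49 cells, beside a log2 ratio of 1.29 in stromal- or myoid-like cells of the 7-day pair.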

How the results depend on the processing

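Over the alternatives run (TMM factors, pseudocounts 0.1 and 10, stricter or no cell filters, doublet calls kept, Leiden clusters or a stricter score in place of the classes, the germ-like level subtracted and, chosen after seeing the data, only cells with at least 2000 UMIs), ratios of at least 2-fold kept their direction in 140 of 140 whole-library values and 160 of 160 stromal- or myoid-like values, and stayed at least 2-fold in 136 and 159. The exceptions all arose with a pseudocount of 10, which shrinks low genes: Cxcl3 in 3 comparisons (log2 ratio 0.94 in the 2-day pair, 0.16 in the 7-day pair and -0.78 from 2 to 7 days) and Cxcl2 from 2 to 7 days (-0.86) and in stromal- or myoid-like cells of the 7-day pair (0.66). With a pseudocount of 0.1 the number of ligands 2-fold apart between 9 and 14 dpp was 1, Cxcl2, in place of 0. With TMM factors Cxcl12 in the 2-day pair passed 2-fold over whole libraries (0.88 to 1.0007). Below 2-fold, Cxcl12 in stromal- or myoid-like cells changed sign with TMM in the 2-day pair and from 2 to 7 days (0.03 to -0.10), and Cxcl16 from 2 to 7 days (-0.02) was 0.00 with doublet calls kept or by Leiden clusters. With the stricter score the stromal- or myoid-like share of UMIs in the 2-day explants was 62.5% for Cxcl1, 60.4% for Cxcl2, 83.7% for Cxcl5 and 72.7% for Cxcl14, since fewer cells were assigned. Classes of 10 to 58 cells are limited by their few cells, and thinning left out 445 of the 1189 Sertoli-like cells of the 2-day explants as too shallow. Leydig-like cells are limited by the smaller part of them in the explants that kept the class with the stricter score. No paired analysis was possible because each group has 1 library.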
